A study of Homo sapiens with 26 samples.

Results

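The genes described here are the expressed protein-coding genes of human chromosome 5, taken as 1 row of genes from the tip of the short arm to the tip of the long arm. They are the rows of the deposited expression table with chromosome 5, the protein-coding biotype and a mean of 2 or more fragments per kilobase of gene length, scaled per library (FPKM), over the 26 libraries. The rule took 429 of 884 protein-coding rows on the chromosome, and the whole table holds 58735 rows. Of the 429 members, 66 lie on the short arm and 363 on the long arm, split at 48 Mb of GRCh38. The members just inside the limit were LSM11 at a mean of 2.02 FPKM and NEURL1B at 2.02, and the genes just outside were UNC5A at 1.96 and GFPT2 at 1.95. The rule also names, from values measured in these libraries, a DLD1 clone in which the members were mostly low and an HCT116 clone in which they were mostly high. Since the set and those 2 clones were chosen on FPKM values of these libraries, their levels are a description and carry no test.

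The study asked how cells of different size differ after their genome has doubled. It used 3 established cancer cell lines, CAL51 from a triple-negative breast cancer and HCT116 and DLD1 from colorectal cancers, all near-diploid at the start. Division was blocked for 20 hr with 75 µM blebbistatin, a myosin II inhibitor, in HCT116 and CAL51, and with 1.5 µg/mL dihydrocytochalasin, which blocks actin assembly, in DLD1. After 48 hr without drug, single cells were grown into clones, and the study sorted the tetraploid (4N) clones into small and large by cell and nuclear size. Every line was represented by its parental cells (1 library) and by 2 diploid (2N) clones. The 4N clones numbered 3 small and 4 large in DLD1, 3 and 3 in HCT116, and 1 and 3 in CAL51. The labels give a drug for the 4N clones and none for the 2N libraries, so ploidy and past drug exposure cannot be told apart. Each 4N library is 1 clone grown from 1 cell, so a change that arose in that cell or its descendants would be read as a property of the clone. DNA copy number was not analysed here.

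Reads assigned to genes ranged from 23.5 to 44.5 M per library, and 1 read in a gene of 1 kb was worth 0.0246 to 0.0400 FPKM, a floor that covers counting error alone. Mitochondrial genes took 2.42 to 10.1% of the reads. The epithelial genes EPCAM, KRT8 and KRT18 were above 1 FPKM in all 26 libraries, and the leukocyte genes PTPRC and CD3E and the endothelial gene PECAM1 stayed under 1 FPKM. The epithelial cadherin CDH1 reached 1 FPKM in only 3 of 7 CAL51 libraries. Of the mesenchymal genes, VIM was at 6.53 to 36.9 FPKM in CAL51, where COL1A1, COL1A2 and ACTA2 reached 8.35, 16.3 and 11.3, and COL1A1 reached 5.25 in HCT116 and was above 1 in all 9 libraries. Their part in the results was not tested. The colonic marker CDX2 was at 38.5 to 81.8 FPKM in DLD1 and 4.28 to 8.02 in HCT116. The other colonic markers were low or uneven. CDX1 was listed at 0 in every HCT116 library and did not pass 0.0610 FPKM in DLD1. VIL1 reached 1 FPKM in 4 of 10 DLD1 libraries and did not pass 0.0213 in HCT116. KRT20 reached 1 FPKM in 5 of 10 DLD1 and 3 of 9 HCT116 libraries. In CAL51 the breast marker TFAP2A was at up to 16.7 FPKM and at 1 FPKM or more in all 7 libraries, while KRT7 did not pass 0.0620 and GATA3 did not pass 1.13. KRT19, also on the breast list, had a median of 11.3 FPKM in CAL51 and higher ones of 371 in DLD1 and 793 in HCT116.

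Chromosome 5 carries genes for the adherens junction, for translation, for mitochondrial proteins and for growth control, mixed along both arms. The dosage of a chromosome usually shows in messenger RNA: when a cell gains or loses an arm, most expressed genes of that arm move together by a modest amount, while single genes can depart from it through their own regulation. Loss of the long arm is a well-known lesion in myeloid disease, where the ribosomal gene RPS14 is one of the genes studied, and the long arm is also often lost in solid tumours. This background was not tested here.

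The sequences just upstream of the genes on either side of each turn in level are given first. They belong to the flanking genes and do not show the place of the turn itself, which was located only as between 2 members. Of the 429 members, 379 were matched to a RefSeq promoter entry of GRCh38.p14, and the 250 bases before the annotated start are printed 5′ to 3′ on the gene's own strand. Capitals mark 4 letter strings, read on either strand. GGGCGG is the core of a GC box, CCAAT gives its name to the CCAAT box, the TATA box is searched as TATAAA, and ETS proteins bind cores such as CCGGAA. Overlapping matches run together. MRPS30 (chr5:44808697-44808946, plus strand) and PELO (chr5:52787666-52787915, plus strand) flank the turn in DLD1 small clone 1. NUP155 (chr5:37371107-37371356, minus strand) and WDR70 (chr5:37379068-37379317, plus strand) flank the turn in HCT116 large clone 3, and CTNNA1 (chr5:138753175-138753424, plus strand, the first of 4 entries) is the member called in DLD1. The RefSeq start of CTNNA1 lies inside the longer span that the deposited table gives for the gene, so its window is upstream of an internal start of that span.
MRPS30: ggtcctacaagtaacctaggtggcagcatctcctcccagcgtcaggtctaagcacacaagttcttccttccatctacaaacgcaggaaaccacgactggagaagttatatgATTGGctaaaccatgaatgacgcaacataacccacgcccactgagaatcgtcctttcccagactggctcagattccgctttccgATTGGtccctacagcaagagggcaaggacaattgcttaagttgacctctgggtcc
PELO: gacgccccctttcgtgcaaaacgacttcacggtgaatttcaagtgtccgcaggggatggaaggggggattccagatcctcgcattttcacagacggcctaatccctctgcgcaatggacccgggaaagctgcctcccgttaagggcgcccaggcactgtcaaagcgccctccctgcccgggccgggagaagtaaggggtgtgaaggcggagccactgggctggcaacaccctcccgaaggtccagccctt
NUP155: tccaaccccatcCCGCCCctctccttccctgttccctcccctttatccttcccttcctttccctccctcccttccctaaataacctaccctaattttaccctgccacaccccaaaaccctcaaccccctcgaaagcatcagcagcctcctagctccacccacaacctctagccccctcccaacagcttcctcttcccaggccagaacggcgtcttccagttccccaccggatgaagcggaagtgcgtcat
WDR70: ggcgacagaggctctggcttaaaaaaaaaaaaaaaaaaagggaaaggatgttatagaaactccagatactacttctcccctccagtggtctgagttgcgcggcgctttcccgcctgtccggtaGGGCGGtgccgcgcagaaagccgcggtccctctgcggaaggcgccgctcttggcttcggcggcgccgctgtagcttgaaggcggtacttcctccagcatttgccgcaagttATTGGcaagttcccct
CTNNA1: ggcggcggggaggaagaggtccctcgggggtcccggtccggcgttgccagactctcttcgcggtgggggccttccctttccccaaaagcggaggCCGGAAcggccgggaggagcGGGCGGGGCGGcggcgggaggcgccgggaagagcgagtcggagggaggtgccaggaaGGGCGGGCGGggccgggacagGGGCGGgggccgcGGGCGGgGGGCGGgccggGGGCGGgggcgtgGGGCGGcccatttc
The 5 windows were unlike in these letters. PELO held none of the 4 strings, MRPS30 held 2 matches of CCAAT, and CTNNA1 held 9 of GGGCGG in a window of 80% G and C. Over the 379 matched members, 71.0% had GGGCGG against 42.6% of all 35116 windows of the same length in the table, and 30.3% had CCGGAA against 14.5%. CCAAT was about as frequent in members (33.2%) as in all windows (32.0%), and TATAAA was less frequent (4.75% against 10.7%). These members were chosen for their expression and were counted with 1 window each, while the table holds every gene and several windows for some. The shares were not compared with expressed genes of other chromosomes, so they are no trait of chromosome 5. The cause of the differences was not tested. A match of letters is no evidence of a bound site.

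In DLD1 small clone 1 the long arm of chromosome 5 was low as a whole and the short arm was not. For each library, the level of a member is given as the log2(FPKM + 1) minus the mean of the 3 2N libraries of its line (the parental library and the 2N clones), a scale that understates the change of low genes. The median of the 363 long-arm members was -0.33 in this clone, which is 79.4% of 2N on the FPKM + 1 scale, with the middle 50% of members between -0.49 and -0.20. Of these members 332 were lower than the 2N mean and 27 higher. The 66 short-arm members had a median of 0.09, or 106.5% of 2N. Genes of the other autosomes with the same minimum level, 8910 in number, had a median of -0.0040. In a bulk library, a larger drop in some of the cells and a smaller drop in every cell cannot be told apart.

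The other DLD1 libraries lay close to 0 on both arms. The long-arm medians were -0.03 in small clone 2, 0.03 in small clone 3, and between -0.01 and 0.02 in the 4 large clones. Each 2N library, set against the other 2N libraries of its line, gives the level of change to be met in controls, and over the 9 2N libraries of all lines the median of the 429 members was between -0.03 and 0.04. In small clone 1, 282 of the 363 long-arm members (77.7%) were below all 3 2N libraries, against 28.1% of the genes of other autosomes in the same clone. In the same clone 235 long-arm members (64.7%) were the lowest of all 10 DLD1 libraries, against 12.7% on other autosomes. Chromosome 5 had the lowest median of the 22 autosomes in this clone, and the lowest among the others was -0.05, on chromosome 18. Summed over the long arm, the members reached 4971 FPKM in small clone 1 and 6436 to 7055 in the other 9 DLD1 libraries. Summed over the short arm, they reached 1106 FPKM in small clone 1 and 964.2 to 998.2 in the others, so this clone stood apart from the rest in opposite directions on the 2 arms.

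**Figure D1:**
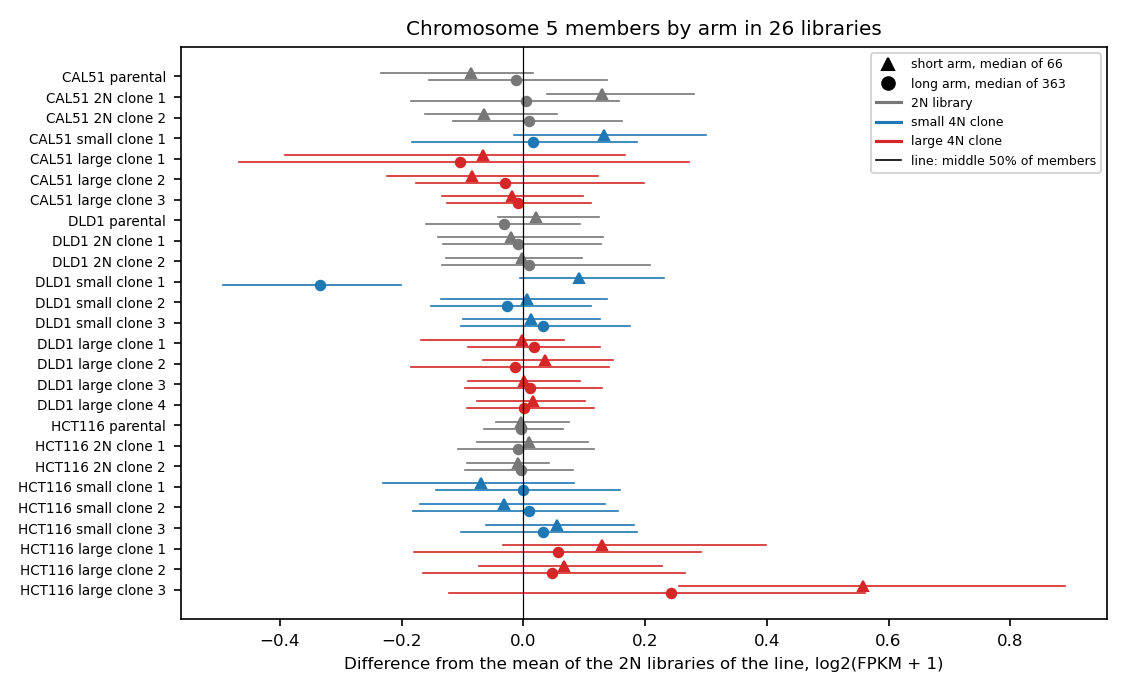
Median difference from the 2N libraries of the line, on the log2(FPKM + 1) scale, for short-arm (triangles, 66 members) and long-arm genes (circles, 363 members) in each of the 26 libraries, each 2N library being set against the other 2N libraries of its line, with lines over the middle 50% of members. DLD1 small clone 1 has a long-arm median of -0.33 and a short-arm median of 0.09, and HCT116 large clone 3 has medians of 0.24 and 0.56.

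The turn lay at the centromere. A least-squares fit of constant levels along the ordered members gave 2 segments in DLD1 small clone 1, PLEKHG4B to MRPS30 (66 members, ending at 44820428) and PELO to RACK1 (363 members, starting at 52787940). The turn lay between the same 2 members with differences limited to 0.5, with segments of at least 8 members, with a minimum of 5 FPKM and with centring on genes of like G and C content. On the short-arm side, PAIP1, a translation factor, differed by 0.38, NNT, a mitochondrial transhydrogenase, by 0.52, and MRPS30, a mitochondrial ribosomal protein, by 0.09. On the long-arm side, PELO, a ribosome rescue factor, differed by -0.42, the collagen receptor subunit ITGA2 by -0.69 and MOCS2, of molybdenum cofactor synthesis, by -0.32. In windows of 10 Mb the median of the long arm stayed between -0.43 (50 to 60 Mb) and -0.27 (90 to 100 Mb). Every 10 Mb window of the long arm thus had a median below 2N, although 27 single members were above it. On the short arm the windows lay between 0.04 and 0.17. The same fit also placed turns, with smaller steps, in some 2N libraries. Segment medians were 0.0008 and -0.08 in the DLD1 parental library and -0.0090, -0.10 and 0.02 in DLD1 2N clone 1. DLD1 2N clone 2 had 1 segment.

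**Figure D2:**
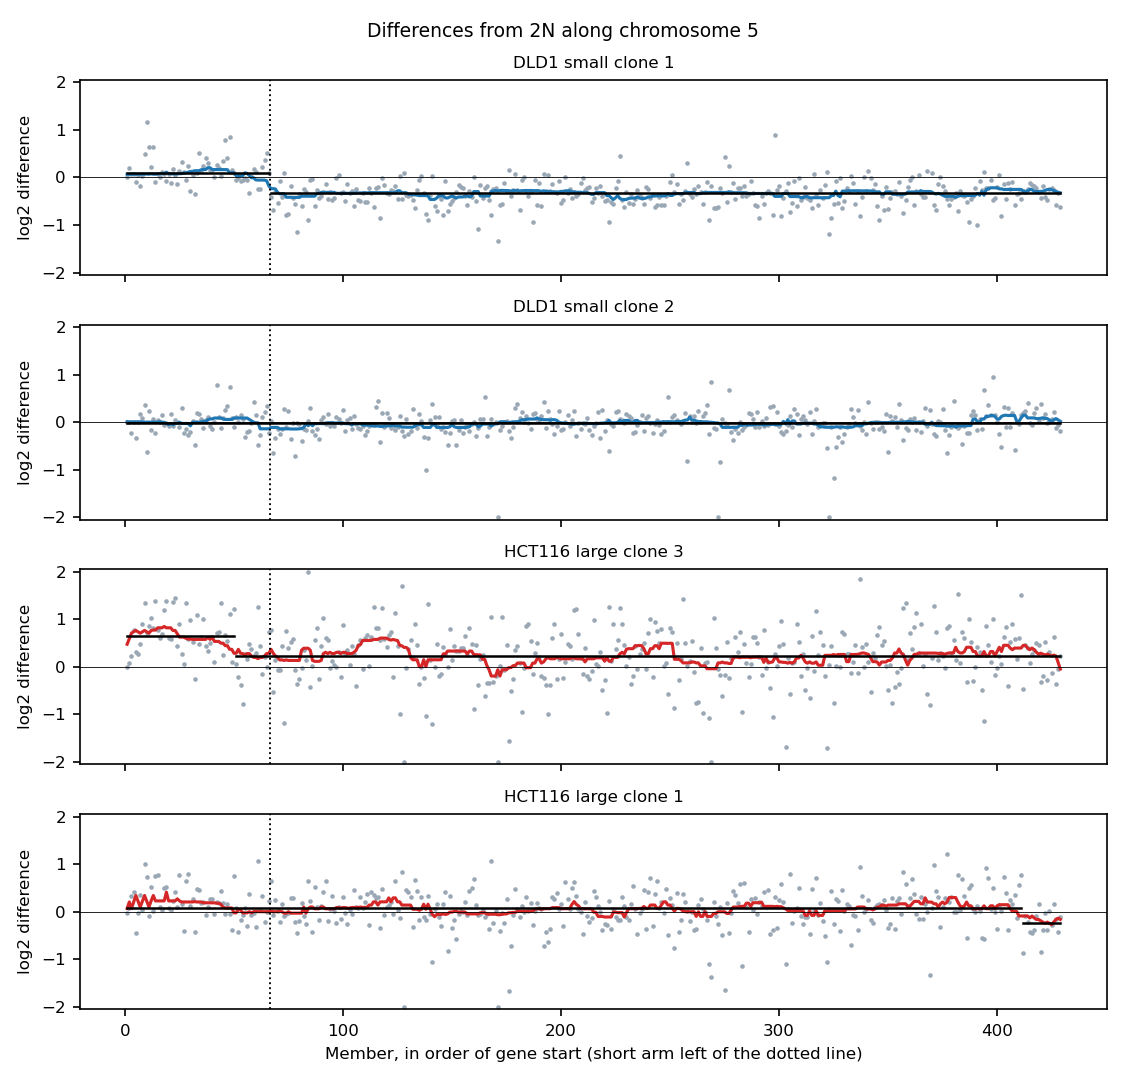
Difference from 2N on the log2(FPKM + 1) scale for the 429 members in order of gene start, in 4 clones; grey dots are members (values past -2 or 2 are drawn at the edge), coloured lines are running medians, black lines are the fitted segments, and the dotted line separates the arms. DLD1 small clone 1 drops from a segment median of 0.09 to -0.33 at the dotted line, and HCT116 large clone 3 drops from 0.65 to 0.23 before it.

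The members of DLD1 small clone 1 were also counted in 8 lists of function, which hold only some of the long-arm members. The counts stand beside the 332 of 363 long-arm members lower than 2N, and no difference between lists was tested. In the list of protein synthesis 24 of 24 long-arm members were lower than 2N, 23 of them below all 3 2N libraries. RPS14, a protein of the small ribosomal subunit, was at 135, 197 and 139 FPKM in the 2N libraries, 103, 144 and 138 in small clones 1 to 3, and 159, 148, 140 and 172 in the large clones. The value of small clone 1 was the lowest of the 10. ETF1, which ends translation at stop codons, was at 81.7, 81.4 and 81.8 FPKM in the 2N libraries, 51.9, 75.1 and 75.6 in the small clones and 72.7 to 88.3 in the large ones. Again small clone 1 lay below all others, with no overlap. NPM1, a nucleolar chaperone, and RACK1, a ribosome-bound scaffold, differed by -0.57 and -0.63 in that clone. On the short arm the same list had 7 members with a median of -0.0005.

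Cell-cycle genes were lower in 19 of 19 long-arm members, DNA repair and replication genes in 13 of 13 and genes of the nucleus, chromatin and RNA in 25 of 25. CCNB1, the cyclin of mitotic entry, was at 84.4, 101 and 68.0 FPKM in the 2N libraries and at 54.9 in small clone 1, and at 77.6 to 103 in the other 4N clones. CDK7, a kinase shared by the cell cycle and transcription, differed by -0.50, and UBE2B, a ubiquitin-conjugating enzyme of DNA damage tolerance, by -0.58. HNRNPAB, an RNA-binding protein, differed by -0.45, LMNB1, lamin B1, by -0.22, HNRNPH1 by -0.16 and HNRNPA0 by -0.41. The size varied between members, but no long-arm member of these 3 lists was above the 2N mean.

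Mitochondrial and metabolic genes were lower in 15 of 17 long-arm members, signalling genes in 16 of 18, cytoskeleton and trafficking genes in 16 of 20, and Wnt and adhesion genes in 5 of 7. VDAC1, the outer-membrane channel of mitochondria, was at 132, 154 and 132 FPKM in the 2N libraries, 89.9 in small clone 1, and 118 to 144 in the other 4N clones. The mitochondrial chaperone HSPA9 differed by -0.63, and the respiratory chain subunits COX7C and UQCRQ by -0.50 and -0.55. F2RL1, a protease-activated receptor, differed by -0.89, and the autophagy receptor SQSTM1 by -0.44. DIAPH1, a formin that builds actin filaments, differed by -0.56, CLTB, a clathrin light chain, by -0.37, and CANX, a chaperone of the endoplasmic reticulum, by -0.17. PPP2CA, a phosphatase catalytic subunit, differed by -0.59 and the kinase CSNK1A1 by -0.43, while FBXW11, an F-box protein, differed by 0.06.

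The members farthest from 2N in this clone, among 281 with a mean of at least 5 FPKM in DLD1, followed the arms with 1 exception. All of the 8 lowest lay on the long arm. IL6ST, the shared receptor chain of the interleukin-6 family, was lowest, at 11.1, 10.0 and 17.3 FPKM in the 2N libraries, 5.09, 12.2 and 13.0 in the small clones and 9.95 to 14.6 in the large clones. The next were the peptide-amidating enzyme PAM (-0.94), GPRIN1 (-0.93), F2RL1 (-0.89), the polo-like kinase PLK2 (-0.89), the ubiquitin ligase RNF145 (-0.89), ZMAT2 (-0.86) and SMN1 (-0.85). SMN1 has a near-identical copy, SMN2, between which reads can be split, so its value is uncertain, and its 2N libraries ranged from 4.64 to 16.1 FPKM. Of the 8 highest, 7 lay on the short arm. NKD2, an inhibitor of Wnt signalling, was at 3.43, 5.27 and 5.20 FPKM in the 2N libraries and 11.6, 2.62 and 1.76 in the small clones, so it was high in small clone 1 and below all 2N libraries in the others. SKP2, an F-box protein that marks cell-cycle inhibitors for destruction, was at 25.4 FPKM in small clone 1, 17.3 and 19.8 in the other small clones and 12.4 to 18.1 in the 2N and large clones. The exception was the cell adhesion gene PCDH1 of the long arm, at 0.88. It was also high in small clone 3, at 11.9 FPKM, and in large clone 3, at 10.6, against 3.37 to 5.85 in the 2N libraries.

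In HCT116 large clone 3 the members were high on both arms, most of all on the short arm. The median of the 66 short-arm members was 0.56, or 147% of 2N on the FPKM + 1 scale, with the middle 50% between 0.26 and 0.89. The 363 long-arm members had a median of 0.24, or 118% of 2N, with a middle 50% from -0.12 to 0.56, and the genes of other autosomes had a median of 0.03. On the short arm 57 of 66 members (86.4%) were above all 3 2N libraries, and on the long arm 214 of 363 (59.0%), against 45.6% on other autosomes. On the short arm 48 members (72.7%) were the highest of the 9 HCT116 libraries, and on the long arm 163 (44.9%), against 27.5% on other autosomes. The clone thus differed from 2N in many genes elsewhere too, and the long-arm shares stood closer to that background than the short-arm shares. Chromosome 5 had the highest median of the 22 autosomes in this clone, and the next was 0.12, on chromosome 20. It was also the highest in large clone 2, at 0.06 against 0.04 for the next, and not in large clone 1. Summed over the short arm, the members reached 1257 FPKM, against 715 to 940 in the other 8 HCT116 libraries.

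The level in this clone changed inside the short arm. The fit placed 1 turn, between NUP155 and WDR70 at about 37.4 Mb: 50 members from PLEKHG4B to NUP155 had a median of 0.65, with 48 of 50 higher than 2N, and 379 members from WDR70 to RACK1 had a median of 0.23, with 255 higher and 123 lower. NUP155 was the last member before the turn under the same 4 alternatives. NUP155, a nuclear pore protein, was at 9.99, 8.20 and 9.02 FPKM in the 2N libraries, 9.35, 8.74 and 11.7 in the small clones, and 15.9, 12.2 and 22.5 in the large clones. All 3 large clones lay above every other library, large clone 3 farthest. WDR70, which starts next to it on the opposite strand, was at 3.85, 3.72 and 3.49 FPKM in the 2N libraries and 3.91 in large clone 3. Before the turn, the glutamate transporter SLC1A3 differed by 1.11 and the cohesin loader NIPBL by 0.11. After it, the oncostatin M receptor OSMR differed by -0.21 and RICTOR, of the mTOR complexes, by -0.38. In windows of 10 Mb the medians went from 0.77 at the tip of the short arm to 0.28 at 40 to 50 Mb. On the long arm they ranged from -0.17 (100 to 110 Mb) to 0.39 (70 to 80 Mb), so the long arm was uneven, with 2 windows below 0. A turn near this place was not particular to the clone. In CAL51 small clone 1 the fit turned after WDR70, from a median of 0.20 to 0.02. The HCT116 parental library also had a turn, on the long arm, from 0.0031 to -0.02, and the HCT116 2N clones had none.

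The size of the difference in HCT116 large clone 3 went with expression level. The members were divided by mean FPKM into 3 groups of 143 (limits 5.37 and 13.8 FPKM), and the long-arm median was 0.03, 0.28 and 0.46 from the lowest to the highest group. The short-arm medians were 0.38, 0.59 and 0.77. The genes of other autosomes in the same ranges had medians of -0.07, 0.02 and 0.17, so part of the slope was shared by the rest of the genome. With each gene set against genes of other chromosomes at like level, the medians of this clone were 0.50 on the short arm and 0.20 on the long arm. In DLD1 small clone 1 the long-arm medians were -0.29, -0.34 and -0.41 over the 3 groups, and the other autosomes stayed between -0.02 and 0.0013. The part of expression level in these results was not tested.

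**Figure D3:**
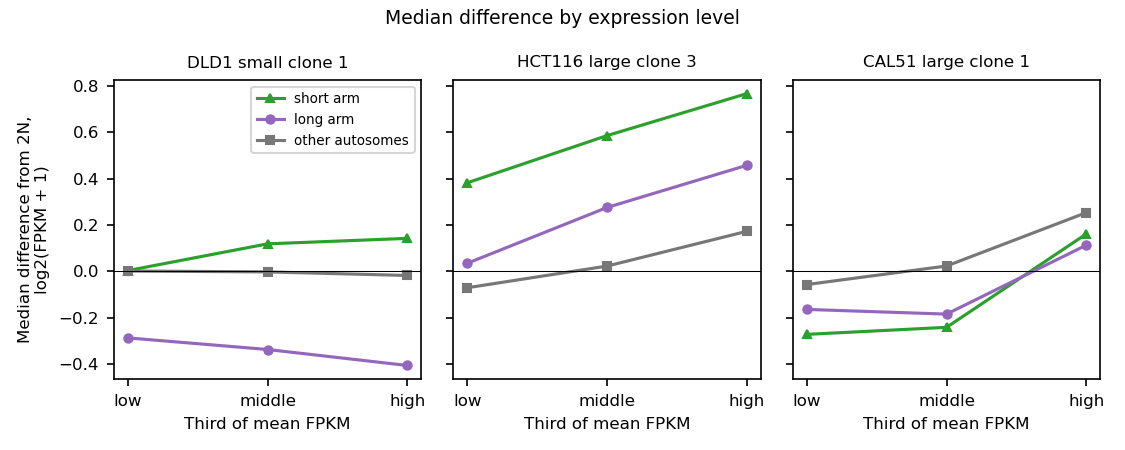
Median difference from 2N, on the log2(FPKM + 1) scale, in 3 equal groups of members by mean FPKM, for short-arm members, long-arm members and genes of other autosomes in 3 clones. In DLD1 small clone 1 the long arm lies at -0.29 to -0.41 in all 3 groups; in HCT116 large clone 3 the long arm goes from 0.03 to 0.46 and the other autosomes from -0.07 to 0.17.

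The lists of function in HCT116 large clone 3 stand beside 244 higher and 118 lower among the 363 long-arm members, and beside 59 of 66 higher on the short arm; no difference between a list and its arm was tested. In the list of protein synthesis 23 of 24 long-arm and 7 of 7 short-arm members were higher than 2N. The RNA methyltransferase NSUN2 of the short arm was at 24.3, 25.4 and 24.3 FPKM in the 2N libraries, 21.4, 20.2 and 23.9 in the small clones, and 35.5, 29.1 and 66.5 in the large clones. The 3 large clones did not overlap with any other library. ETF1 was at 47.8 to 58.2 FPKM in the 2N libraries and at 61.4, 63.4 and 110 in the large clones. NPM1, RACK1 and RPS14 differed by 0.83, 0.23 and 0.24 in large clone 3. Mitochondrial and metabolic genes were higher in 14 of 17 long-arm members, among them VDAC1 (0.95), HSPA9 (0.39), COX7C (0.46) and UQCRQ (0.51). Genes of the nucleus, chromatin and RNA were higher in 17 of 25, led by HNRNPAB, and DNA repair and replication genes in 10 of 13. Cytoskeleton and trafficking genes were higher in 15 of 20 and Wnt and adhesion genes in 5 of 7, with PPP2CA at 0.80 and CTNNA1 at -0.04.

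Of the long-arm signalling members 8 of 18 were higher than 2N in this clone and 10 lower. Of the cell-cycle members 10 of 19 were higher and 9 lower on the long arm, and 3 of 3 were higher on the short arm. EGR1, an immediate early transcription factor, was at 205, 174 and 249 FPKM in the 2N libraries, 162, 137 and 146 in the small clones, and 78.7, 72.7 and 35.2 in the large clones. The 3 groups did not overlap, and large clone 3 was lowest. SPRY4, a feedback inhibitor of receptor kinase signalling, differed by -1.69, and F2RL1 by 1.33. CCNB1 differed by 0.28, CCNG1, a cyclin of the p53 response, by -0.43, and BOD1, of chromosome alignment, by 0.22.

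The extremes of HCT116 large clone 3, among 296 members with a mean of at least 5 FPKM in the line, all lay on the long arm at the low end. NR2F1, an orphan nuclear receptor, was at 61.4, 68.1 and 79.1 FPKM in the 2N libraries and 3.36 in large clone 3. It was also below all 2N libraries in every other 4N clone, at 6.91 to 33.9 FPKM. After it came EGR1 (-2.52), ENC1 (-2.03), SMIM3 (-1.70), SPRY4 (-1.69), RHOBTB3 (-1.55), GPX8 (-1.19) and MXD3, a partner of MAX (-1.13). At the high end, PLK2 was at 20.1, 14.1 and 16.0 FPKM in the 2N libraries and 26.5, 38.3 and 79.7 in the large clones, and small clone 3 reached 31.1, so the small and large clones overlapped. GEMIN5, of the SMN complex (1.85), UTP15 and NOP16, which act in ribosome assembly (1.69 and 1.53), HNRNPAB (1.52) and the homeobox gene PITX1 (1.42) lay on the long arm. NSUN2 (1.40) and the mitochondrial ribosomal gene MRPL36 (1.39) lay on the short arm.

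The other 15 4N clones had medians over the 429 members between -0.10 and 0.06. HCT116 large clones 1 and 2 were slightly high, at 0.06 each, and large clone 1 had a short-arm median of 0.13. In CAL51 the short arm varied among the 2N libraries as well: its median was 0.13 in 2N clone 1 and 0.13 in the small clone, against -0.09 in the parental library. CAL51 large clone 1 was the lowest of the 15, with a median of -0.10 against 0.07 for other autosomes. The fit split it into 5 segments, of which 191 members from IL6ST to EGR1 had a median of -0.26 and 17 members from PRELID1 to HNRNPAB one of 0.68. With each gene set against genes of other chromosomes with like G and C content, the median of that clone was 0.0007, and 1 segment was left. Its short-arm median was still -0.12 in that setting. With genes of like level as the reference instead, its median was -0.14, so the 2 centrings gave different answers. Centred by G and C content, DLD1 small clone 1 kept medians of 0.11 and -0.32 on the short and long arm, and HCT116 large clone 3 kept 0.54 and 0.20. The part of base composition was not tested.

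Between large and small clones, few members differed past the threshold. The contrast was large minus small within a line, fitted with limma over 14835 genes, with Benjamini-Hochberg adjustment and a threshold of 0.05. The replicates of a size class were different clones. The fit shared 1 spread over all groups, so p-values rest on how far clones varied in every line and not only in the line compared. With each line fitted alone, 0 members passed in CAL51, in DLD1 and in HCT116. In DLD1, 0.472% of all tested genes passed, and 1 of 429 members (0.233%). In HCT116, 0.445% of all genes passed, and 1 of 429 members (0.233%). NUP155, NSUN2 and EGR1, whose large HCT116 clones did not overlap with the other libraries, did not pass (adjusted p 0.103, 0.0572 and 0.123, limma). In CAL51, 1.52% of all genes passed, and 7 of 429 members (1.63%), 4 higher and 3 lower in large clones. These shares of members lie near or under those of all genes. Without large clone 2, the HCT116 count was 37 members (8.62%), 33 of them higher in large clones. In that fit 6.98% of all genes passed, 583 higher and 452 lower. Large clone 3, which the rule names for its high members, weighs more there, so the direction of these members is no separate result. Without large clone 3 the count was 2 members (0.466%), against 0.425% of all genes.

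Across all members the median contrast was 0.09 in DLD1 (0.11 on the long arm), 0.11 in HCT116 (0.28 on the short arm and 0.08 on the long arm) and -0.07 in CAL51, against 0 to 0.0020 in size over all genes. These medians contain the 2 clones named by the rule. Without DLD1 small clone 1 the DLD1 median was 0.0059, and without HCT116 large clone 3 the HCT116 median was 0.05, with 0.13 on the short arm. In CAL51 it was -0.03 after centring by G and C content and -0.02 without large clone 1.

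CTNNA1, the member called in DLD1, encodes alpha-catenin, which ties cadherins to actin at adherens junctions. Its gene spans 138610967 to 138935034 on the plus strand. It was at 34.5, 33.9 and 41.3 FPKM in the 2N libraries, 23.4, 2.59 and 2.24 in small clones 1 to 3, and 36.1, 38.0, 38.7 and 32.9 in the large clones. Small clones 2 and 3 were far below the rest, and small clone 1 was between them and the lowest 2N library. The contrast was 2.51 ± 0.44 (SE) on the log2(FPKM + 1) scale, with an adjusted p of 0.00929 in limma. It did not pass when DLD1 was fitted alone (0.260) or without small clone 2 (0.0758) or small clone 3 (0.0926), and was 3.45 without small clone 1 (1.76e-10, limma). In CAL51 and HCT116 the contrasts were -0.20 ± 0.66 and 0.08 ± 0.47, with adjusted p of 0.988 and 1.00 (limma). The differences between lines did not pass (adjusted p 0.158 for CAL51 and 0.201 for HCT116, limma).

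The values of the 24 members that start within 2 Mb of CTNNA1 are given beside it; small clone 1 was chosen by the rule for its low long arm. In small clone 1, where CTNNA1 differed by -0.62 from 2N, the neighbours had a median of -0.31 and 22 of 24 were lower. In small clones 2 and 3, where CTNNA1 differed by -3.38 and -3.53, the neighbours had medians of -0.01 and -0.0040, with 14 and 12 of 24 lower. The lowest neighbour in both was SIL1, a nucleotide exchange factor of the endoplasmic reticulum that starts on the minus strand downstream of CTNNA1, at -0.83 and -0.74. It was at 5.96, 5.16 and 4.02 FPKM in the 2N libraries, 4.15, 2.36 and 2.58 in the small clones, and 7.84, 5.52, 3.69 and 4.63 in the large clones. Small clones 2 and 3 were below every other DLD1 library. The SIL1 window upstream of its RefSeq start held 3 matches of GGGCGG and 1 of CCAAT. Like that of CTNNA1, this start lies inside the longer span that the deposited table gives for the gene, so the window is upstream of an internal start.

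**Figure D4:**
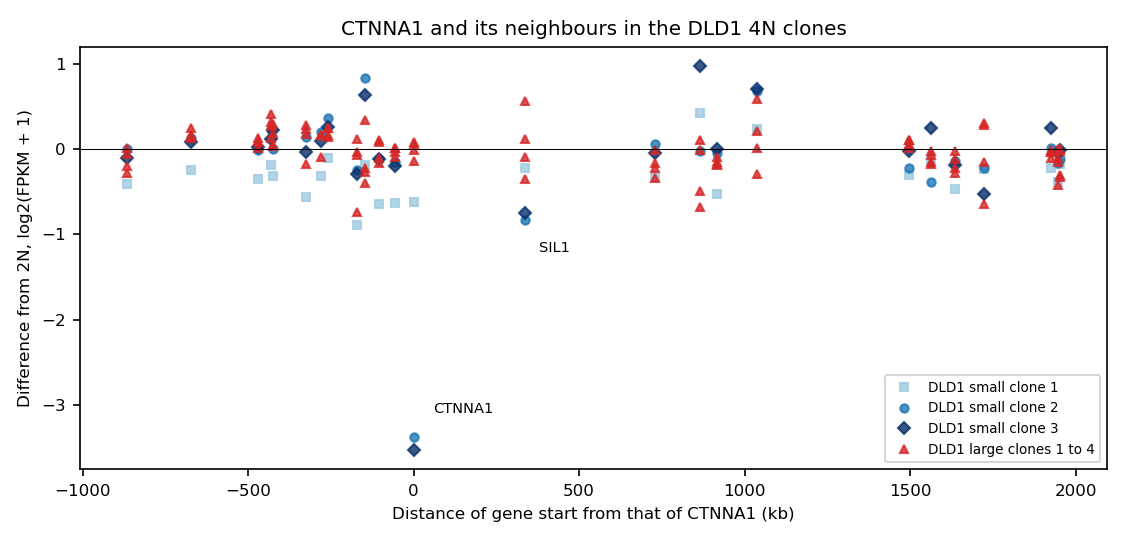
Difference from 2N on the log2(FPKM + 1) scale for CTNNA1 and the 24 members within 2 Mb of its start, by distance in kb, in the 7 DLD1 4N clones. CTNNA1 lies at -3.38 and -3.53 in small clones 2 and 3 and at -0.62 in small clone 1, whose neighbours have a median of -0.31.

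SH3RF2, a RING and SH3 domain protein of the long arm, was the member called in HCT116. It was at 3.40, 4.10 and 2.56 FPKM in the 2N libraries, 0.629, 1.56 and 0.814 in the small clones and 6.47, 8.92 and 1.92 in the large clones. The small clones lay below all other libraries, and large clone 3, high on most of the chromosome, was the lowest of the large clones. The contrast was 1.61 ± 0.35 (SE), with an adjusted p of 0.0459 in limma. It was lost without small clone 1 (0.207), small clone 3 (0.0713) or large clone 1 (0.147). It was also lost with no filter on low values (0.0764), with voom on recovered reads (0.0840) and with HCT116 fitted alone (0.368).

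The 7 members called in CAL51 rest on a single small clone, taken to vary like the clones of other groups. LIX1 was at 10.6, 11.1 and 17.3 FPKM in the 2N libraries, 3.61 in the small clone and 15.7, 24.8 and 19.0 in the large clones, and the small clone was lowest. Its contrast was 2.15 ± 0.21 (SE), with an adjusted p of 1.82e-05 in limma, and it did not pass with CAL51 fitted alone (0.780). In DLD1 and HCT116 it did not exceed 0.0193 FPKM, and the fit shared 1 spread over all groups. Its SE and p thus rest largely on lines that hardly express LIX1, and they understate the spread of CAL51 clones. PDGFRB, a platelet-derived growth factor receptor, was at 12.4, 3.08 and 19.9 FPKM in the 2N libraries, 0.573 in the small clone and 20.8, 3.47 and 23.7 in the large clones. Large clone 2 and 2N clone 1 thus lay nearer to the small clone than to the other large clones, and the contrast was 3.09 ± 0.71 (SE; adjusted p 0.0340, limma). PDGFRB had a mean of 3.28 FPKM over the 26 libraries, nearly all of it from CAL51. The limit given for the SE and p of LIX1 thus holds for PDGFRB too.

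FOXD1, a forkhead transcription factor, was at 1.19, 1.82 and 3.69 FPKM in the 2N libraries, 1.32 in the small clone and 5.06, 12.1 and 11.3 in the large clones (2.09 ± 0.48, adjusted p 0.0323, limma). The homeobox gene TLX3 was at 2.87, 0.907 and 2.63 FPKM in the 2N libraries, 1.86 in the small clone and 4.80, 4.36 and 4.83 in the large clones (0.99 ± 0.24, adjusted p 0.0457, limma). For both, the small clone lay within the 2N range and the large clones above it. FER, a tyrosine kinase, was at 2.50, 4.76 and 3.25 FPKM in the 2N libraries, 4.96 in the small clone and 2.34, 2.35 and 2.49 in the large clones (-0.81 ± 0.18, adjusted p 0.0323, limma). PWWP2A, a chromatin reader, was at 7.44, 8.61 and 5.51 FPKM, 11.4, and 4.62, 4.43 and 6.22 in the same order (-1.03 ± 0.23, adjusted p 0.0284, limma). SLC22A5, the carnitine transporter, was at 1.74, 4.15 and 2.13 FPKM, 5.22, and 2.52, 1.79 and 1.42 (-1.12 ± 0.26, adjusted p 0.0344, limma). In these 3 the small clone was the highest library and the large clones overlapped with 2N for PWWP2A and SLC22A5. Except for LIX1, each of these calls was lost when at least 1 of the 3 large clones was left out, with adjusted p up to 0.0676 (FOXD1 without large clone 2). LIX1 kept its call with the same shared spread, so this does not set it apart from the others.

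**Figure D5:**
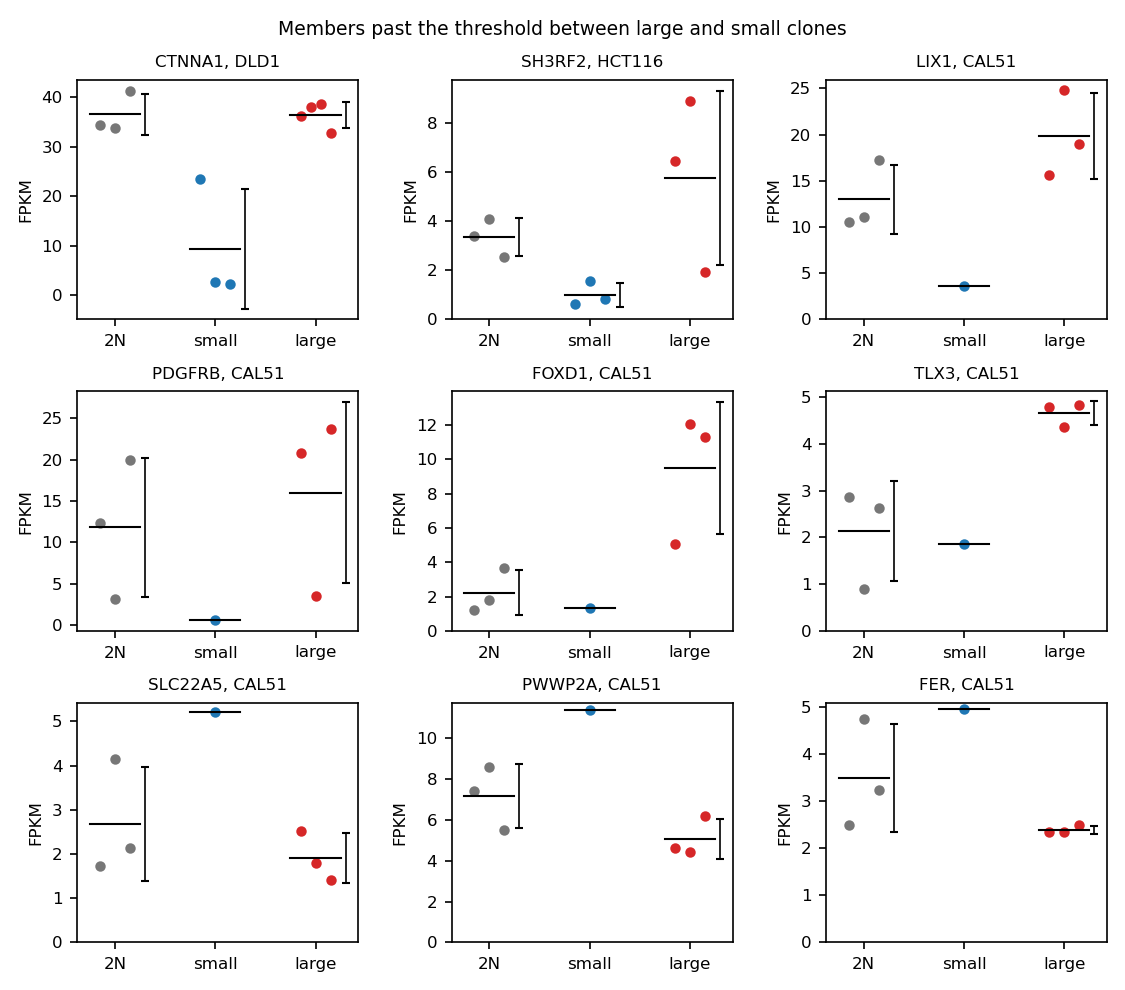
FPKM of the 9 members past the threshold between large and small clones, in the 2N libraries, small clones and large clones of the line in which each passed; points are libraries, horizontal bars are means and brackets are 1 SD where there are 2 or more libraries. CTNNA1 is at 2.24 to 23.4 FPKM in the small DLD1 clones and 32.9 to 38.7 in the large ones, and each CAL51 panel has 1 small clone.

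Few members of the lists of function passed the threshold between size classes. Of the 8 lists, signalling had 1 member past the threshold in CAL51 (PDGFRB) and Wnt and adhesion had 1 in DLD1 (CTNNA1), and the other lists had none in any line, against the shares of all genes given above. The median contrast was highest for protein synthesis in HCT116, at 0.42 over its 31 members, and 0.24 without large clone 3. It was lowest for genes of the nucleus, chromatin and RNA in CAL51, at -0.20 over its 29 members, and -0.15 without large clone 1. Protein synthesis in CAL51 was close to that, at -0.19, and was lower, at -0.33, without large clone 1. Medians over all genes were near 0, and no list was tested as a whole. The protocadherin clusters of the long arm, with 15, 16 and 22 coding rows, gave no member, since none reached a mean of 2 FPKM.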

How the data were processed

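Poly-A RNA of 26 libraries was sequenced on a NovaSeq with a directional dUTP protocol, per the labels. The authors deposited 1 table of FPKM values per gene. The submitters' processing notes name fastp, HISAT2 2.0.5, featureCounts 1.5.0-p3, DESeq2 and GRCh38, with no role or order. FPKM is relative to the library's total, so a member's value also depends on all other genes. FPKM times gene length gave whole numbers (within 0.01) after scaling by 1 value per library, and these recovered reads, 23.5 to 44.5 M per library, were used for depth and for voom alone.

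Differences used log2(FPKM + 1). Contrasts were fitted with limma 3.58.1 (R 4.3.3) on 12 group means with a mean-variance trend, over 14835 genes with at least 1 FPKM in 3 or more libraries, with Benjamini-Hochberg adjustment and two-sided tests. On data simulated for the DLD1 contrast with 14835 genes, 89 of 100 genes changed by a log2 of 1 and 95 of 100 changed by 2 were recovered, and 8 unchanged genes were called. The simulation gave every gene the same relative spread between libraries, which real clones need not share. These shares check the code and do not say what share of real changes was found. Segments came from least squares with the Bayesian information criterion, with at least 15 members and differences limited to 1. Python 3.11.15 with pandas 2.3.3 and numpy 2.4.6 was used for the rest. Coordinates are those of the table, and all 429 members had the same coordinates in GENCODE 29.

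The members, the lists and the alternatives were chosen with earlier results of these data known. Genes were named by these rules: up to 4 members per list by mean FPKM, the 8 lowest and 8 highest members of each of the 2 clones, members past the threshold, CTNNA1 and its neighbours, and the 3 members on each side of a turn. Alternatives covered the pseudocount, filters, voom, fitting a line alone, the reference libraries, centring, the replicate block and leaving out each clone; centring by G and C content or by level and the 3 groups by FPKM were added after seeing the data.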

Additional observations from a re-analysis of the deposited data

Results flagged for a closer look

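The contrast of large minus small clones differed between lines, by limma's test of the difference with Benjamini-Hochberg adjustment, in 10 cases among the 429 members, all involving CAL51 with its single small clone. Between DLD1 and HCT116 none passed, and 37 members had an unadjusted p under 0.05. The DLD1 contrasts contain small clone 1 and the HCT116 contrasts large clone 3, which the choice of the genes used, so each p is also given without that clone (an alternative added after seeing the data).

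Against DLD1, LIX1 differed by 2.15 (adjusted p 0.000229, limma). IQGAP2, a scaffold protein, differed by -2.44 (adjusted p 0.0349, limma), with contrasts of -1.66 in CAL51 and 0.79 in DLD1. SLC22A5 differed by -1.48 (adjusted p 0.0323, limma) and FER by -0.996 (adjusted p 0.0450, limma). Without DLD1 small clone 1, LIX1 still passed (adjusted p 0.000481, limma), but IQGAP2 (0.0537), SLC22A5 (0.0627) and FER (0.0835) did not. IQGAP2 was at 29.5 FPKM in the CAL51 small clone and 4.58, 8.14 and 16.7 in the large clones, against 17.4 to 21.9 in the 2N libraries.

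Against HCT116, LIX1 differed by 2.16 (adjusted p 0.000292, limma). ANKRD33B differed by -2.36 (adjusted p 0.0250, limma), with contrasts of -1.44 in CAL51 and 0.92 in HCT116. NSUN2 differed by -1.47 (adjusted p 0.0434, limma), from -0.59 and 0.88, and the RNA helicase DDX46 by -1.22 (adjusted p 0.0348, limma), from -0.80 and 0.42. SLC22A5 differed by -1.29 (adjusted p 0.0481, limma). SMN2 differed by -1.27 (adjusted p 0.0455, limma), and its reads can be split with the near-identical SMN1. Without HCT116 large clone 3, LIX1 (adjusted p 0.000558, limma), ANKRD33B (0.0465) and NSUN2 (-1.13, 0.0198) passed, but DDX46 (0.0613), SLC22A5 (0.0889) and SMN2 (0.0768) did not. LIX1 did not exceed 0.0193 FPKM in DLD1 or HCT116 and met the minimum mean of 2 FPKM through CAL51 alone, so its differences restate the CAL51 contrast and are no separate result.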

How the results depend on the processing

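The count of members past the threshold was small and moved with the fit. In CAL51 the 7 became 3 with a pseudocount of 0.1, 2 with voom, 0 with the line fitted alone and 4 with G and C centring, and 3 to 11 without 1 clone. In DLD1 the 1 became 0 with the line fitted alone, and 0 to 1 without 1 clone. In HCT116 the 1 became 0 with no filter, with voom and with the line fitted alone, and 0 to 37 without 1 clone. The small and large clones share numbers in DLD1 and HCT116, but same-numbered clones had correlated deviations of only -0.06 to 0.09 in DLD1 and 0.03 to 0.16 in HCT116, so the numbers were not taken as pairs; in HCT116 each small clone correlated best with its own number, and in DLD1 1 of 3 did. With the replicate block the counts were 4 in CAL51, 0 in DLD1 and 0 in HCT116; CTNNA1, SH3RF2, FER, PDGFRB, PWWP2A, SLC22A5 and TLX3 were not among them. The median of DLD1 small clone 1, -0.295, was -0.352 with a pseudocount of 0.1, -0.315 from 5 FPKM, -0.272 as a mean, -0.251 with no minimum, -0.281 with G and C centring and -0.310 to -0.285 without 1 2N library. The median of HCT116 large clone 3, 0.281, was 0.343, 0.416, 0.255, 0.109 and 0.255 under the same settings, 0.250 minus other autosomes, 0.288 against the 2N clones, 0.255 with level centring and 0.283 to 0.291 without 1 2N library. No tested contrast changed direction. Among single members and other libraries, 172 values kept their side or moved by less than the 2N spread, 116 moved by more, and 53 lost the call. The 2N spread is the SD of the 3 2N medians of a line, 0.0327 in CAL51, 0.0101 in DLD1 and 0.000290 in HCT116. By this measure very small shifts in HCT116 count as moved, so the 116 is no measure of stability. The cause of these changes was not tested.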
